A study of Mus musculus with 9 samples.

Results

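Meningeal lymphatic endothelial cells (MLECs) line the lymphatic vessels of the dural meninges, which carry fluid and immune cells from the brain's coverings to the cervical lymph nodes. The comparison here is between MLECs of mice bearing GL261 tumors and MLECs of mice bearing B16 tumors, taken as the 3 GL261 and the 3 B16 libraries among the 9 of the series. GL261 is a mouse glioma line and B16 a mouse melanoma line, and both are syngeneic to the C57BL/6 strain used. The mice were male and 10 weeks old per the labels, and per the labels each was given 100000 tumor cells by way of the cisterna magna. The study's methods name instead an injection under the dura, with a number of cells that differed between the tumors. MLECs were collected about 3 weeks after GL261 and about 2 weeks after B16 injection per the labels, while the methods give one range of weeks for both tumors. Tumor type, time since injection and number of cells injected cannot be told apart. The 3 control libraries, from mice given PBS alone, are used only as a reference level.

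Each library was made from 10 cells sorted out of a pool of 6 mice, stained for CD31, CD45 and LYVE-1 per the labels, while the study's results name a CD45-negative, CD31-positive, PDPN-positive gate. Values are FPKM, fragments per kilobase of transcript scaled to the number of mapped fragments, so that transcript length and library size are allowed for. FPKM sums still differed, from 768691 to 888312 in GL261 and from 701951 to 764489 in B16 libraries. A single gene, Rnu12, made up 7.41% of the sum in GL261 replicate 2 and 11.1% in B16 replicate 1. It was at 0 in every other library. A gene was tested when its FPKM reached 1 in at least 3 of the 6 tumor libraries, which 9123 of 24321 genes did. Differences are GL261 minus B16 on the log2(FPKM + 1) scale, on which the changes of low genes are understated. They were tested with limma, with p-values adjusted over all 9123 genes. The spread behind the p-values is that between libraries, each of 10 cells from a pool of 6 mice. Differences between pools, the sampling of 10 cells and amplification cannot be told apart in it.

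Depth was not equal between the tumors. By the spacing of the lowest FPKM values, the GL261 libraries were 3.71, 3.92 and 2.16 times as deep as B16 replicate 1, and B16 replicates 2 and 3 were 1.84 and 2.23 times as deep. An FPKM of 0.362 to 0.657 in GL261 and of 0.635 to 1.42 in B16 was worth 3 fragments on a transcript of 1 kb. The control libraries were shallower than every tumor library, at 0.80, 0.93 and 0.59 times the depth of B16 replicate 1. In them 3 fragments were worth 1.52 to 2.40 FPKM, so low control values are uncertain. GL261 replicate 3 and B16 replicate 3 were nearly equal in depth and are set side by side where it matters. Genes listed at 0 may be failed estimates, and no fold is given against a group in which every library is at 0.

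Endothelial and lymphatic markers were first checked against the label. Pecam1, the CD31 gene, was at 384, 318 and 309 FPKM in GL261 and 356, 416 and 468 FPKM in B16 libraries, and Ptprc, the CD45 gene, was listed at 0 in all 9. Prox1, the transcription factor that sets lymphatic identity, was at 1.87, 1.98 and 16.5 FPKM in GL261 and 2.37, 3.72 and 3.12 FPKM in B16 libraries, against 20.9, 33.7 and 42.2 FPKM in the controls. Thus Prox1 stood low in 5 of the 6 tumor libraries and higher in GL261 replicate 3. Lyve1, the hyaluronan receptor used in the sort, was at 777, 660.2 and 1709 FPKM in GL261 and 1895, 628 and 911 FPKM in B16, and Pdpn, which encodes podoplanin, at 42.9, 32.01 and 218 FPKM and 247, 57.5 and 142 FPKM. Both overlapped between the tumors.

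Genes typical of blood endothelium were present in both tumor groups and lower on average in the shallower controls. Not all were low there: Plvap was at 686, 1390 and 905 FPKM and Gpihbp1 at 211, 353 and 267 FPKM in controls. The mean log2 level over 30 tested blood endothelial genes was 6.23 to 6.75 in GL261, 5.59 to 6.63 in B16 and 2.80 to 3.62 in control libraries. The same mean over 19 tested lymphatic genes was 4.71 to 5.42 in GL261, 5.26 to 5.84 in B16 and 6.40 to 6.94 in controls. The blood endothelial mean was above the lymphatic mean in every tumor library but B16 replicate 1 (5.59 against 5.84), and below it in every control library. MLEC is used here as the study's name for the sorted cells. Whether blood endothelial cells were among them was not tested. In such bulk libraries a smaller share of lymphatic cells and less RNA of these genes per cell cannot be told apart.

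Whole profiles of GL261 and B16 MLECs differed little more between the tumors than within them. The mean Euclidean distance was 134 within GL261, 159 within B16 and 153 between them, with a pseudo-F of 1.25. The exact permutation test over the 10 divisions of the 6 libraries gave p = 0.10, the smallest p these divisions allow. A single gene, 0.011% of those tested, passed an adjusted p of 0.05 in limma. Without adjustment, 771 genes (8.45%) had p under 0.05, of which 425 (4.66%) were higher in GL261 and 346 (3.79%) higher in B16. In 662 genes (7.26%) every GL261 library was above every B16 library, and in 648 (7.1%) the reverse held. These shares are the background for the counts that follow. With each library scaled to the same FPKM sum, the counts were 483 and 903, since that scaling moved the median of all genes by -0.14 (log2). A difference above 0 was held by 50.5% of all genes.

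The gene past the threshold was B2m (chr2:121973422-121978819 in mm9, plus strand), which encodes beta-2 microglobulin, the light chain of every MHC class I molecule. MHC class I molecules display peptides from inside the cell to CD8 T cells. Proteasomes, among them the immunoproteasome, cut those peptides, the TAP transporter carries them into the endoplasmic reticulum, and tapasin helps load them. Interferons, above all interferon gamma, are known to raise many genes of this route together with the GTPases and antiviral effectors described further on.

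B2m was at 15798, 18703 and 16928 FPKM in the GL261 libraries and 3268, 3525 and 3114 FPKM in the B16 libraries, with 4629.6, 5650.3 and 7943 FPKM in the controls. All 3 GL261 libraries stood above every control library, and the B16 libraries below every control library. The difference between the tumors was 2.37 (log2, SE 0.14), adjusted p = 0.00047 in limma. Between the depth-matched replicates 3 it was 2.44, and it was 2.37 with estimated depth as a covariate. The adjusted p was 0.077 with no filter on low values (13104 genes tested) and 0.19 without limma's variance trend, so neither setting called B2m.

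Class I heavy chain genes were also higher in GL261 by value, though none passed the adjusted threshold. Of 19 heavy chain genes 13 were tested, all 13 had a difference above 0 (median 1.73), and in 9 the groups did not overlap. Of 21 MHC class I genes, which include B2m, 14 were tested, 3 were listed at 0 in all 6 libraries, and all 14 tested members, B2m among them, had a difference above 0 (median 1.95, against 0.01 over all genes tested). In 10 of them the groups did not overlap, against 7.26% of all genes. Since a gene can enter the test through its high group alone, the 9 members with FPKM of at least 1 in all 6 libraries were also counted: the groups did not overlap in 7, against 7.16% of such genes, and their median difference was 0.98. Without GL261 replicate 2 the tested members had a difference above 0 in 13 of 14, and without B16 replicate 1 in 12 of 14, and in either case 10 did not overlap, against 11.5% and 11.4% of all genes.

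H2-K1 and H2-D1 encode the classical heavy chains, which pair with B2m and present peptides to CD8 T cells. H2-K1 was at 1405, 1348 and 1191 FPKM in GL261 and 451, 156 and 352 FPKM in B16 libraries, a difference of 2.17 (log2, SE 0.37), adjusted p = 0.13. H2-D1 was at 1886, 1895 and 1877 FPKM in GL261 and 963, 772 and 1163 FPKM in B16, a difference of 0.98 (log2, SE 0.20), adjusted p = 0.19. Each classical gene was thus close to equal among the GL261 libraries and lower in every B16 library, without passing the adjusted threshold.

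Of the nonclassical chains, H2-T23 and the Qa-2 genes showed the same order by value. H2-T23, whose product Qa-1 is a ligand of NKG2 receptors, was at 423, 379 and 653 FPKM in GL261 and 251, 230.4 and 273 FPKM in B16 libraries. H2-Q7, a Qa-2 gene, was at 361, 275 and 399 FPKM and 14.98, 40.02 and 9.62 FPKM, a difference of 4.16 (log2, SE 0.50), adjusted p = 0.082. H2-Q8 was at 99.6, 105 and 223 FPKM in GL261 and 15.5, 0.00179 and 0.00196 FPKM in B16 and H2-Q9 at 102, 95.7 and 28.4 FPKM and 15.5, 1.48 and 12.5 FPKM. The Qa-2 genes are near-identical copies, so the split of fragments among H2-Q7, H2-Q8 and H2-Q9 is uncertain. H2-Q7 passed the threshold without B16 replicate 2 and H2-Q8 without B16 replicate 1. H2-T22, H2-M3 and H2-Q6 overlapped between the tumors, with H2-M3 at 14.4, 53.6 and 39.1 FPKM in GL261 and 13.99, 15.6 and 17.8 FPKM in B16.

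The genes that supply class I peptides were higher in GL261 by value as well. All 13 tested genes of this list had a difference above 0 (median 1.31). In 10 (76.9%) the groups did not overlap, against 7.26% of all genes. Without GL261 replicate 2 the groups did not overlap in 11, against 11.5% of all genes. Of the 9 with FPKM of at least 1 in all 6 libraries, 7 did not overlap (median 1.10), against 7.16% of such genes. The 5 immunoproteasome genes all did not overlap, with a median of 2.11, and 5 of the 8 transport and loading genes did not overlap, with a median of 1.04. Over all genes the share was 7.26%.

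Psmb8 (chr17:34334666-34338399, mm9), a catalytic immunoproteasome subunit, was at 501, 331 and 262 FPKM in GL261 and 80.4, 65.01 and 101 FPKM in B16 libraries, a difference of 2.11 (log2, SE 0.33), adjusted p = 0.13. Psmb9, another catalytic subunit, was at 219, 245 and 234 FPKM and 0, 67.4 and 40.9 FPKM, and Psmb10 at 162, 150.0 and 102 FPKM and 0, 97.02 and 52.2 FPKM. Both were listed at 0 in B16 replicate 1, the shallowest library, and with depth as a covariate the difference of Psmb10 changed sign and that of Psmb9 was 0.90, against 4.04 (log2, SE 1.33) without it. Psme1, a proteasome activator subunit, was at 336, 286 and 373 FPKM in GL261 and 149, 174 and 117 FPKM in B16. Tap1, a subunit of the peptide transporter, was at 26.4, 19.8 and 64.03 FPKM and 12.03, 6.42 and 17.96 FPKM, and Tapbp, which encodes tapasin, at 101, 62.9 and 99.8 FPKM and 26, 33.4 and 44.8 FPKM. None of these passed the adjusted threshold, and GL261 was above B16 in every library pair of each.

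**Figure D1:**
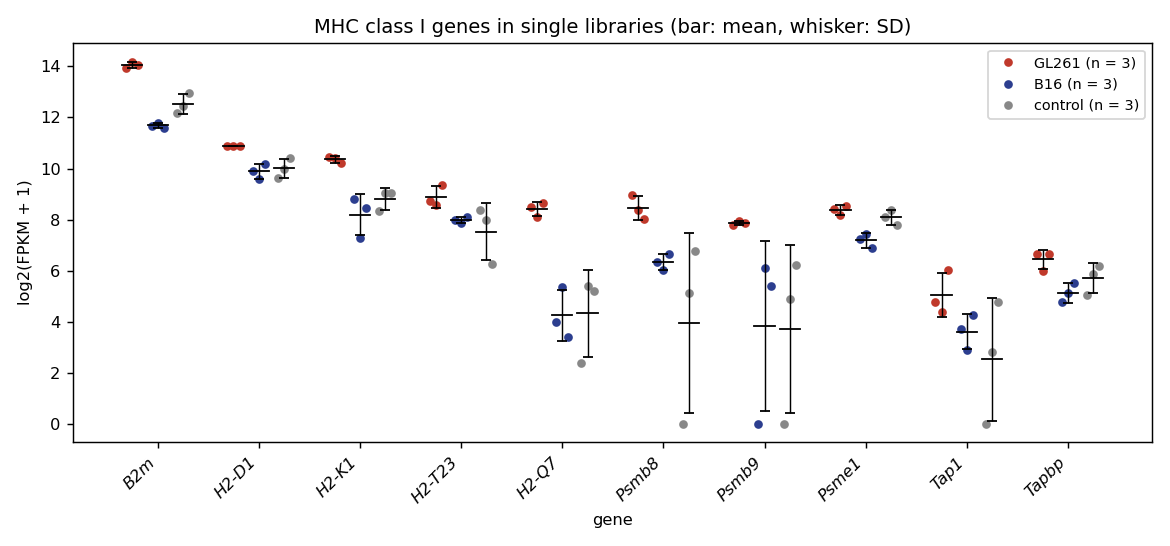
Level of 10 class I genes in each library as log2(FPKM + 1), for GL261, B16 and control libraries (n = 3 each), with the mean and SD. All 10 were picked from genes whose groups did not overlap, so the 3 GL261 points sit above the 3 B16 points by choice. The control points of several genes lie between the tumors or spread over both.

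MHC class II genes, which present peptides to CD4 T cells and are expressed mainly by professional antigen-presenting cells, were spread widely among libraries. The 9 tested of 13 had differences above 0 (median 2.58), but no member reached FPKM 1 in all 6 libraries. In 2 (22.2%) the groups did not overlap, against 7.26% of all genes. H2-Ab1 was at 141, 338 and 100.2 FPKM in GL261 and 56.3, 0 and 24.3 FPKM in B16 libraries. Cd74, the invariant chain, was at 159, 961 and 40.4 FPKM and 29.3, 0 and 67.4 FPKM, and H2-Aa at 11.8, 365 and 6.55 FPKM and 63.04, 1.602 and 0 FPKM. GL261 replicate 2 was highest in all 3, and without it the list's median was 1.65 with 8 of 9 above 0. Without B16 replicate 1 the median was 4.33, and 4 of 9 (44.4%) did not overlap, against 11.4% of all genes.

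GL261 replicate 2 also held the most RNA of leukocyte genes by summed FPKM. Over 33 leukocyte genes the summed level was 253, 910 and 275 FPKM in GL261, 491, 335 and 73.3 FPKM in B16 and 370 to 591 FPKM in control libraries, and 15 of the 33 were at 0 in all 6 tumor libraries. C1qa, a complement gene of macrophages, was at 0.323, 186 and 22.4 FPKM in GL261 and 44.7, 0 and 0 FPKM in B16, and Lyz2, which encodes lysozyme, at 2.33, 324 and 14.8 FPKM and 13.8, 11.4 and 0 FPKM. The part of these transcripts in the class II values was not tested. The mean log2 level of the tested interferon-gamma genes was 5.85, 5.34 and 5.37 in GL261 and 3.03 to 3.18 in B16 libraries. The part of leukocyte RNA in these levels was not tested.

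Genes induced by interferon gamma stood higher in GL261 than in B16 by value, and none passed the adjusted threshold. Of 32 such genes 26 were tested, and 23 had a difference above 0 (median 2.49). In 17 (65.4%) the groups did not overlap with GL261 higher, against 7.26% of all genes, and in 0 with B16 higher. The count with GL261 higher was 18 (69.2%) without GL261 replicate 2 and 18 (69.2%) without B16 replicate 1, against 11.5% and 11.4% of all genes. Of the 15 with FPKM of at least 1 in all 6 libraries 9 did not overlap (median 1.30), against 7.16% of such genes. Of 17 GTPase genes, whose products attack the membranes around intracellular microbes, 13 were tested. All 13 did not overlap, against 7.26% of all genes, with a median of 2.90. Not all of the 13 reached FPKM 1 in every library. Gbp10, at 0.814, 0 and 0.902 FPKM in B16, entered the test through its GL261 libraries alone. For the 8 receptor and signaling genes the median was 0.29.

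Tgtp2, an immunity-related GTPase, was at 145, 152 and 166 FPKM in GL261 and 28.3, 9.72 and 9.68 FPKM in B16 libraries, with 21.6, 18.6 and 11.2 FPKM in the controls, a difference of 3.37 (log2, SE 0.48), adjusted p = 0.12. Igtp and Irgm1 belong to the same family. Igtp was at 129, 76.7 and 61.8 FPKM and 9.02, 15.6 and 9.18 FPKM, and Irgm1 at 148, 69.3 and 70.4 FPKM and 5.15, 22.3 and 11.5 FPKM. In each, the lowest GL261 library held several times the FPKM of the highest B16 library.

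Guanylate-binding proteins, the other GTPase family, showed the same order. Gbp4 was at 48.1, 34.7 and 53.01 FPKM in GL261 and 3.68, 0 and 0 FPKM in B16 libraries, and Gbp3 at 44.7, 44.7 and 82.6 FPKM and 7.57, 0 and 2.39 FPKM. Gbp2 was at 120.1, 36.6 and 414 FPKM in GL261, highest in replicate 3, and 18.2, 7.74 and 19.1 FPKM in B16. Among the effectors, Cxcl9, a chemokine that draws T cells, was at 422, 63.8 and 17.2 FPKM in GL261 and 0, 0 and 1.06 FPKM in B16, and Serpina3f was at 74.6, 61.5 and 5.14 FPKM and listed at 0 in all 3 B16 libraries. Both spread over more than 10-fold among the GL261 libraries.

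Receptor and kinase genes of the interferon pathway had small differences. The receptor subunits Ifngr1 and Ifngr2 had differences of 0.53 (log2, SE 0.33) and -0.42 (log2, SE 0.45), and the kinases Jak1 and Jak2 of -0.15 (log2, SE 0.43) and 0.15 (log2, SE 0.59). Irf1, an interferon regulatory factor, overlapped between the tumors at 61.2, 51.9 and 135 FPKM and 33.4, 109 and 47.9 FPKM. Of 21 genes that encode interferons, 19 were listed at 0 in the 6 tumor libraries, and Ifng and Ifnb1 were listed at 0 in all 9.

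Type I interferon-stimulated genes, which include the antiviral effectors, were higher in GL261 in 35 of 38 tested of 43, with a median of 1.90. In 19 (50%) the groups did not overlap with GL261 higher, against 7.26% of all genes. This count was 22 (57.9%) without GL261 replicate 2 and 21 (55.3%) without B16 replicate 1, against 11.5% and 11.4% of all genes. Among the 19 with FPKM of at least 1 in all 6 libraries, 7 did not overlap, against 7.16% of such genes, and the median was 0.79. With the depth covariate the medians of the gamma and type I lists were 2.26 and 1.45, and between the depth-matched replicates 3 they were 2.55 and 1.79.

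Ifitm3, which blocks viral entry, was the most abundant of these at 9593, 8679.8 and 9376 FPKM in GL261 and 4304, 2391 and 5418 FPKM in B16 libraries, a difference of 1.27 (log2, SE 0.27), adjusted p = 0.21. Ifitm1, its relative, was at 221, 18.3 and 736 FPKM in GL261 and listed at 0 in the B16 and control libraries. Bst2, the tetherin gene, was at 673, 638 and 1086 FPKM in GL261 and 106, 329 and 203 FPKM in B16. These surface proteins thus kept the same order at very different levels.

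Ifi44 was at 72.02, 47.1 and 91.4 FPKM in GL261 and 6.75, 4.15 and 6.15 FPKM in B16 libraries, a difference of 3.38 (log2, SE 0.50), adjusted p = 0.12. Irf7, the factor that amplifies type I responses, was at 178, 122 and 293 FPKM and 25.3, 0 and 34.2 FPKM. Ifit3, an antiviral effector, was at 201, 71.1 and 69.4 FPKM and 0, 6.91 and 12.3 FPKM, and Rsad2, the viperin gene, at 64.5, 6.01 and 16.9 FPKM and 0, 0 and 0.183 FPKM. Some members stood low in B16 but not in controls: Isg15, a ubiquitin-like modifier, was at 22.7, 9.42 and 9.64 FPKM in GL261, 0, 0 and 8.32 FPKM in B16 and 0, 46.5 and 57.7 FPKM in controls, so GL261 was not above all control libraries. Its difference between the tumors was 2.71 (log2, SE 1.01), adjusted p = 0.49, with 1.22 under the depth covariate and 0.19 between the depth-matched replicates 3.

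**Figure D2:**
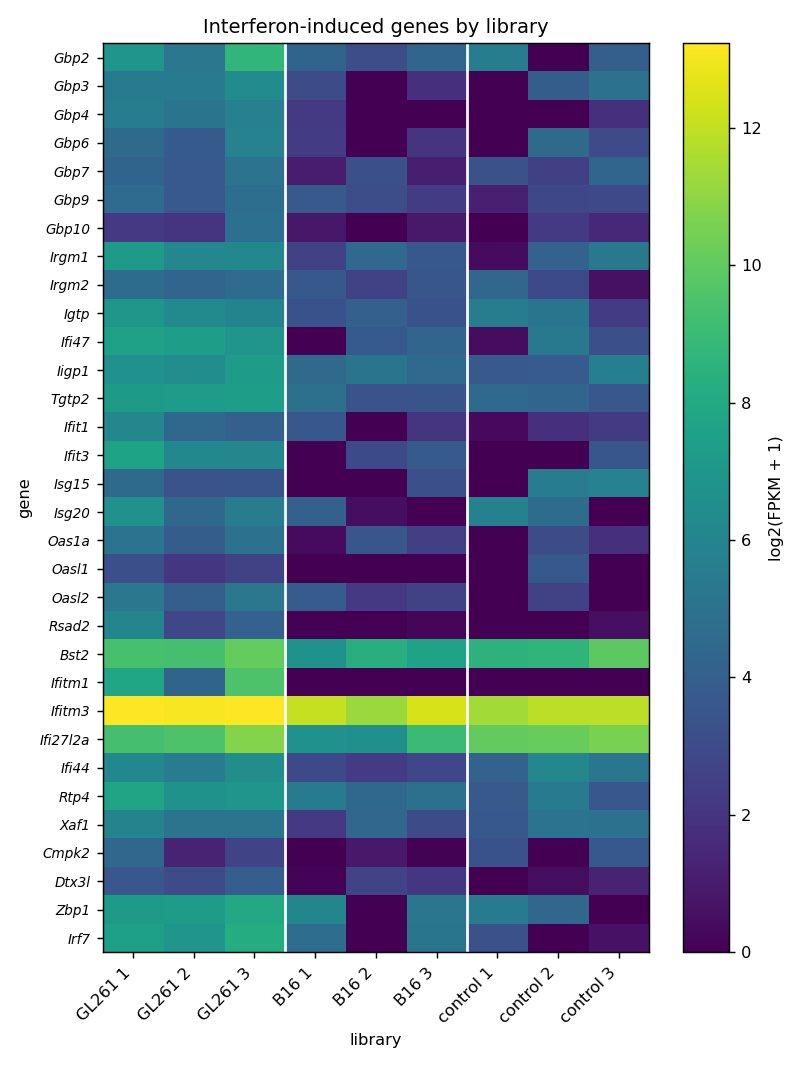
Level of each gene of the interferon-gamma GTPases and the type I interferon-stimulated genes whose GL261 and B16 libraries did not overlap, as log2(FPKM + 1), in GL261, B16 and control libraries (3 each). The 3 GL261 columns are brighter than the 3 B16 columns in each row, with Ifitm3 brightest, while control columns vary from gene to gene.

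**Figure D3:**
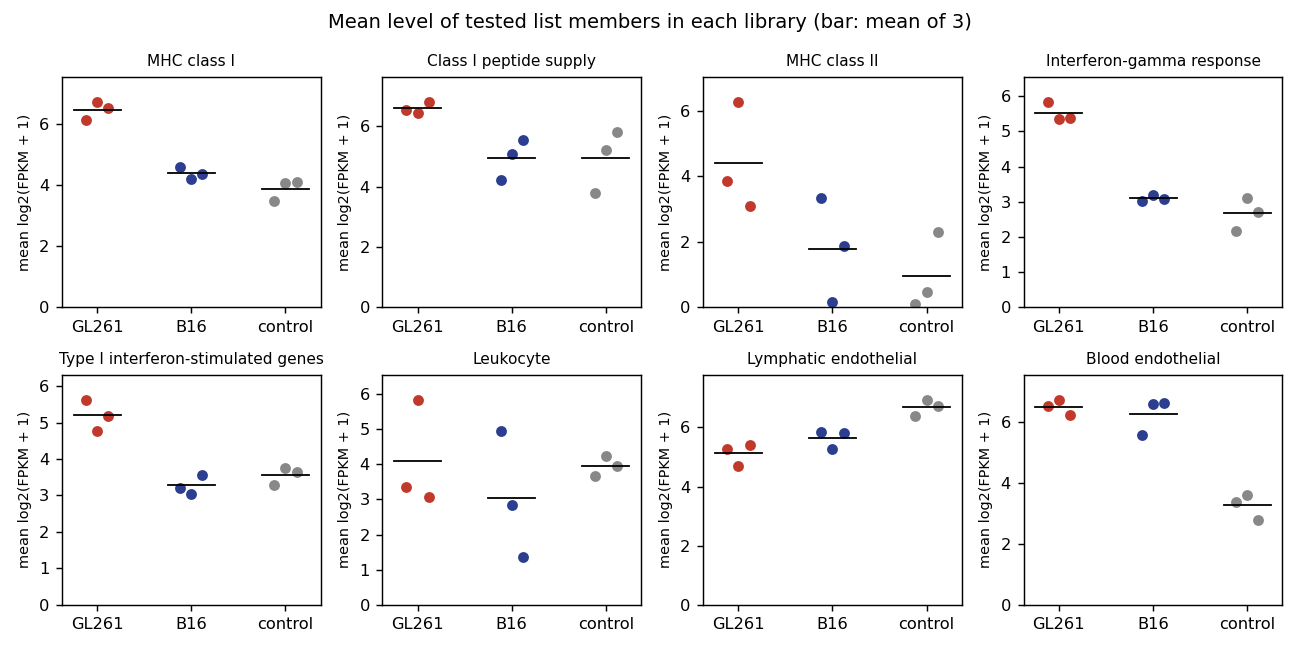
Mean log2(FPKM + 1) of the tested members of 8 lists in each library (points), with the mean of each group (bar). GL261 lies above B16 and control without overlap for class I, peptide supply and both interferon lists, and for the class II and leukocyte lists the GL261 and B16 points overlap.

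Promoters of the genes that were higher together are shown for the letters of the interferon-stimulated response element, a site bound by interferon regulatory factors. RefSeq promoters (GRCm38.p6, not the mm9 build of the FPKM table) were searched on both strands over the 250 bases before the start for its core, GAAA followed by any 2 bases and GAAA again, and separately for TTC followed by any 3 bases and GAA, the gamma-activated site. A gene counted if any of its starts matched. The core was held by 2.98% of all 32851 promoters and 3.23% of the 6959 tested genes that have one. It was held by 9 of 19 interferon-gamma genes (47.4%), 8 of 30 type I genes (26.7%), 3 of 9 class I genes (33.3%) and 0 of 11 peptide supply genes with a promoter. Among the blood endothelial genes it was held by 0 of 20, and among the ribosomal protein genes by 6 of 58 (10.3%). The gamma-activated site was held by 8 of 19 interferon-gamma genes (42.1%) and 6 of 30 type I genes (20%), by 1 of 9 class I genes (11.1%), 1 of 11 peptide supply genes (9.09%) and 0 of 6 class II genes, against 7.08% of tested genes. A match is a description of the sequence, not of binding.

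The 8 windows of 100 bases that follow were picked from genes of the class I and interferon lists that were higher in GL261 and held a match. Genes without a match are not shown, so a match in every window was fixed in advance. The windows are written in the direction of the gene, with each match of the response element core, in either strand, in capitals. They are chr2:122147503-122147602 for B2m, chr17:36032771-36032870 for H2-T23, chr3:142620559-142620658 for Gbp2, chr11:48871421-48871520 for Irgm1, chr11:49064228-49064327 for Tgtp2, chr19:34640740-34640839 for Ifit1, chr12:26456518-26456617 for Rsad2 and chr4:156200842-156200941 for Isg15.
B2m: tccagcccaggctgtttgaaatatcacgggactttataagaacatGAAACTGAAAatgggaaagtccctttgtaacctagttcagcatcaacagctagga
H2-T23: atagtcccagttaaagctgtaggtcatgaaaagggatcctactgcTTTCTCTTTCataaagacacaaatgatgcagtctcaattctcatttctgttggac
Gbp2: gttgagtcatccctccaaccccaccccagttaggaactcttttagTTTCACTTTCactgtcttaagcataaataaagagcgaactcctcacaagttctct
Irgm1: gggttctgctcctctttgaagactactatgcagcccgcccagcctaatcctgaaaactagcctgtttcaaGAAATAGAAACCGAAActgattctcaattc
Tgtp2: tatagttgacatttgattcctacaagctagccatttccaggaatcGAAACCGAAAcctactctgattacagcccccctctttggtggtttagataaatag
Ifit1: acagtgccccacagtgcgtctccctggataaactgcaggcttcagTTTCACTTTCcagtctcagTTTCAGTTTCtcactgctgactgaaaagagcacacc
Rsad2: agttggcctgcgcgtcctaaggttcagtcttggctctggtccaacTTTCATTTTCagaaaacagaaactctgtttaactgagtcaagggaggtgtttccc
Isg15: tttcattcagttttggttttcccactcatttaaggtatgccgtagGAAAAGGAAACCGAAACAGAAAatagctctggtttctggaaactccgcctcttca

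In B2m a single match lies between 139 and 130 bases before the start, whereas Isg15 holds 3 that overlap one another. B2m passed the adjusted threshold, and Isg15 did not.

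Cytosolic ribosomal proteins, the components of the protein-making ribosome, showed a small difference over nearly the whole family. Of 79 tested genes 76 were higher in GL261, all reached FPKM 1 in all 6 libraries, and 39 did not overlap with GL261 higher, against 7.16% of all such genes. The median difference was 0.32, with a range of -0.08 to 1.09, for 47 large and 32 small subunit genes alike (0.33 and 0.30). Rpl36a was at 1922, 1858 and 1836 FPKM in GL261 and 944, 1047 and 1087 FPKM in B16 libraries, a difference of 0.87 (log2, SE 0.17), adjusted p = 0.18. Rplp0 was among the 3 below 0, at 1838, 1984 and 2052 FPKM and 1852, 2063 and 2326 FPKM. The median depended on the scaling and was 0.15 with equal FPKM sums and 0.11 with quantile normalization.

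Cell cycle genes, which drive DNA synthesis and mitosis, varied widely within each tumor. The mean log2 level over the tested members was 2.92, 3.94 and 4.87 in GL261, 3.92, 2.37 and 2.52 in B16 and 1.19 to 1.51 in control libraries, so that GL261 replicate 3 and B16 replicate 1 were the highest of their groups. Of 25 tested of 38, 22 had a difference above 0 (median 0.79). The groups did not overlap in 4 (16%), against 7.26% of all genes. The 9 with FPKM of at least 1 in all 6 libraries had a median of 0.66, and 3 of them did not overlap, against 7.16% of such genes. With depth as a covariate the list's median was 2.03. Without B16 replicate 1 the groups did not overlap in 8 (32%), against 11.4% of all genes. Rrm1, a subunit of ribonucleotide reductase, was at 8.198, 13.7 and 24.9 FPKM in GL261 and 0.518, 1.68 and 4.67 FPKM in B16 libraries, and Hmgb2, a chromatin protein of dividing cells, at 49.8, 54.8 and 146 FPKM and 29.98, 47.4 and 14.8 FPKM.

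Lymphatic genes leaned the other way without a clear difference. Of 19 tested lymphatic endothelial genes 13 were higher in B16, with a median of -0.54 (-0.05 without GL261 replicate 2). In 4 (21.05%) the groups did not overlap with B16 higher, against 7.1% of all genes. Of the 17 with FPKM of at least 1 in all 6 libraries 3 did not overlap with B16 higher, against 8.51% of such genes. The sign of the list's median changed to 0.27 with depth as a covariate, and between the depth-matched replicates 3 it was -0.27. Flt4, the receptor VEGFR3 that drives lymphatic growth, was at 40.1, 45.4 and 48.98 FPKM in GL261 and 106, 56.3 and 59.4 FPKM in B16, against 174, 205 and 219.8 FPKM in controls. Foxc2, a transcription factor of lymphatic valves, was at 1.53, 1.99 and 0 FPKM and 7.25, 7.43 and 8.67 FPKM, with 0 in the controls.

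CCL21, the chemokine by which lymphatic vessels guide dendritic cells, is encoded by several near-identical mouse copies whose single values are uncertain. Their summed level was 6082, 1568 and 3237 FPKM in GL261, 23864, 7164 and 15604 FPKM in B16 and 58479 to 78656 FPKM in control libraries. The groups did not overlap, with every GL261 library below every B16 library. Ccl21c alone was at 810.2, 142 and 646 FPKM in GL261 and 4187, 1204 and 2652 FPKM in B16, a difference of -2.49 (log2, SE 0.66), adjusted p = 0.34. The Ccl21 copies, like the interferon genes, were added as a list after their values had been seen.

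Blood endothelial genes went in both directions (median -0.04), with 4 of 30 (13.3%) higher in GL261 and 3 (10%) higher in B16 without overlap. Over all genes these shares were 7.26% and 7.1%. The median was -0.37 without B16 replicate 1, -0.63 with the depth covariate and -0.40 with the number of genes listed above 0 as a covariate. Ly6c1, a surface protein of blood endothelial cells, was at 4375, 3719.9 and 1886 FPKM in GL261 and 788, 393 and 873 FPKM in B16 libraries and listed at 0 in the controls, a difference of 2.27 (log2, SE 0.39), adjusted p = 0.13. Ackr1, an atypical chemokine receptor of venules, was at 543, 168 and 636 FPKM in GL261 and 0, 0 and 114 FPKM in B16. It passed the threshold without B16 replicate 3, the one B16 library that held it.

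Plvap and Gpihbp1 were higher in B16 by value. Plvap, which forms the diaphragms of fenestrae, was at 1813, 2004 and 1462 FPKM in GL261 and 2599, 4037 and 2887 FPKM in B16 libraries, a difference of -0.84 (log2, SE 0.22), adjusted p = 0.34. Gpihbp1, which anchors lipoprotein lipase in capillaries, was at 661, 666 and 145 FPKM and 1268, 2128 and 958 FPKM. Slc2a1, the glucose transporter of the brain barrier, was higher in GL261 by value, at 211, 311 and 312 FPKM and 143, 77.6 and 174 FPKM. Among 15 pan-endothelial genes 12 were higher in B16 (median -0.32), with the junction gene Cldn5 at 765, 698 and 890.1 FPKM in GL261 and 1679, 1203 and 1136 FPKM in B16.

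Single genes stood far higher in B16. Pgf, the placental growth factor that binds VEGFR1, was at 0.515, 0.0925 and 0.453 FPKM in GL261 and 118, 60.5 and 19.1 FPKM in B16 libraries, against 0, 22.2 and 119 FPKM in controls, a difference of -5.30 (log2, SE 0.79), adjusted p = 0.12. Cyp4b1, a cytochrome P450, was at 3.73, 0 and 0 FPKM in GL261, 43.9, 44.6 and 50.9 FPKM in B16 and 576, 259 and 349 FPKM in controls. So B16 stood between GL261 and the controls for Cyp4b1, and Pgf varied widely among the controls.

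S100b, a calcium-binding protein of glia and melanocytes, was at 0, 3.001 and 0 FPKM in GL261, 37.05, 36.5 and 25.3 FPKM in B16 and 0, 0.739 and 0 FPKM in control libraries. Over the other 14 glial genes 7 were at 0 in all 6 libraries, and the summed level was 4.74, 10.6 and 45.7 FPKM in GL261 and 0, 9.08 and 2.95 FPKM in B16. The GL261 replicate 3 sum was nearly all Fabp7, a fatty acid binding protein of glia, at 0, 0 and 45.7 FPKM in GL261 and 0 in B16. Over 12 melanocyte genes 7 were at 0, with sums of 0.313 to 9.22 FPKM in GL261 and 0 to 3.45 FPKM in B16, and Gfap, Mlana and Tyr were at 0 in all 6. The part of tumor cell RNA in the S100b values was not tested.

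The largest differences among genes with p under 0.01 and no overlap also fell on genes of varied kind, most of them in none of the lists. No gene named in this paragraph passed the adjusted threshold. Higher in GL261 were Timm8a1, a mitochondrial import protein (30.2, 36.8 and 20.1 FPKM against 0, 0.281 and 0 FPKM), the interferon-inducible transcript AW112010 (386, 75.9 and 19.4 FPKM against 0, 0 and 6.75 FPKM) and Akip1 (9.53, 53.5 and 17.6 FPKM against 0 in every B16 library). Akip1 was also at 49.2, 20.5 and 18.01 FPKM in controls. Higher in B16 were Tmem86a (4.95, 0.0806 and 0.146 FPKM against 12.6, 42.3 and 50.8 FPKM), Wbp1 (1.79, 8.798 and 0.239 FPKM against 45.6, 34.2 and 30.5 FPKM), Dusp14 (0.111, 0.945 and 0 FPKM against 15.8, 18.9 and 17.5 FPKM) and Reep2, Snhg10, Gab3 and Gm15706, each listed at 0 in every GL261 library. Among the same 15 were also S1pr4, Zfp64, E030030I06Rik, Sh3gl3 and Grasp, and among the 15 higher in GL261 were A930015D03Rik and the list members Ccl8 and Ifi47. Ccl8, a chemokine for monocytes, was at 16.4, 932 and 52.1 FPKM in GL261, highest in the library with the most leukocyte RNA, and listed at 0 in B16.

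**Figure D4:**
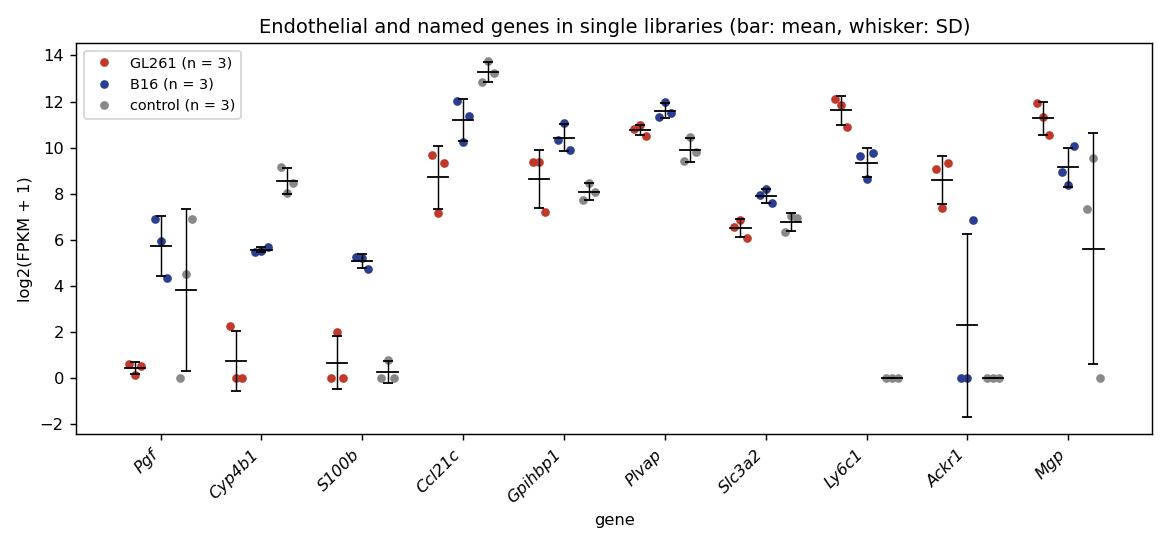
Level of 10 endothelial and other named genes in each library as log2(FPKM + 1), for GL261, B16 and control libraries (n = 3 each), with the mean and SD. Pgf, Cyp4b1, S100b, Ccl21c, Gpihbp1, Plvap and Slc3a2 are higher in every B16 library than in every GL261 library, and Ly6c1, Ackr1 and Mgp lower. All 10 were picked from genes whose groups did not overlap, so this separation was fixed in advance.

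Matrix and growth pathway genes gave smaller counts. Of 28 tested extracellular matrix genes 20 were higher in B16 (median -0.37), with 3 (10.7%) not overlapping each way. Over all genes the shares were 7.26% with GL261 higher and 7.1% with B16 higher. Without B16 replicate 1, 4 did not overlap with GL261 higher and 10 (35.7%) with B16 higher, against 13.4% of all genes. Mgp, an inhibitor of calcification and BMP signaling, was at 3959, 2537 and 1487 FPKM in GL261 and 489, 334 and 1087 FPKM in B16, and Plau, the urokinase gene, at 6.18, 5.53 and 0.961 FPKM and 27.8, 14.2 and 24.2 FPKM. Of 14 Notch genes 11 were higher in B16 (median -0.47), 2 of them (14.3% of the list) without overlap, among them Notch1 at 9.97, 13.1 and 15.1 FPKM and 31.6, 18.8 and 26.4 FPKM. Of 16 BMP and TGF-beta genes 3 (18.75%) did not overlap with GL261 higher and 2 (12.5%) with B16 higher. Id1, a BMP target, was at 712, 1182 and 1346 FPKM in GL261 and 434, 665 and 545 FPKM in B16.

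Adhesion, cytokine and inflammatory lists held at most 3 genes each without overlap in either direction. The shares of all genes were 7.26% with GL261 higher and 7.1% with B16 higher. Leukocyte adhesion genes did not overlap in 1 of 11 (9.09%) and NF-kB genes in 1 of 25 (4%), in both with B16 higher. Of 15 chemokines and cytokines 3 (20%) did not overlap each way, among them Ccl2, which attracts monocytes, at 30.9, 168 and 115 FPKM in GL261 and 21.6, 8.49 and 0 FPKM in B16. Of 6 tested T-cell regulatory ligands Tnfsf10 alone (16.7%) did not overlap, at 4.57, 3.71 and 5.96 FPKM and 1.14, 2.46 and 0 FPKM. Cd274, the PD-L1 gene, overlapped at 18.04, 3.79 and 2.55 FPKM and 0, 2.95 and 0.0638 FPKM. VEGF family genes did not overlap in 2 of 9 (22.2%), the Pgf and Flt4 genes given above, both with B16 higher. Without B16 replicate 1, 5 of 9 (55.6%) did not overlap with B16 higher, against 13.4% of all genes. The list's median was -0.04, and -0.98 with the depth covariate. NF-kB genes without B16 replicate 1 numbered 2 (8%) with GL261 higher and 4 (16%) with B16 higher, against 11.4% and 13.4% of all genes.

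Metabolic and stress lists are given as genes without overlap, beside 7.26% of all genes with GL261 higher and 7.1% with B16 higher. Respiratory chain genes numbered 8 of 77 (10.4%) with GL261 higher and 3 (3.9%) with B16 higher. Glycolysis and hypoxia genes numbered 1 (4.17%) and 2 (8.33%) of 24, and sterol and fatty acid genes 1 and 1 of 22 (4.55% each). Heat shock genes numbered 3 (18.75%) and 1 (6.25%) of 16. Integrated stress and ER stress genes numbered 2 (9.52%) and 1 (4.76%) of 21. Immediate early genes numbered 0 and 2 (8.33%) of 24, and nitric oxide and caveola genes 1 (6.67%) and 2 (13.3%) of 15. Without B16 replicate 1 the shares of all genes rose to 11.4% with GL261 higher and 13.4% with B16 higher. The counts were then 12 (15.6%) and 9 (11.7%) for the respiratory chain and 2 (9.09%) and 3 (13.6%) for sterol and fatty acid genes. They were 5 (31.25%) and 2 (12.5%) for heat shock genes and 2 (13.3%) and 4 (26.7%) for nitric oxide and caveola genes. The amino acid transporter gene Slc3a2 was the stress gene higher in B16, at 92.4, 116 and 67.2 FPKM in GL261 and 242, 296 and 195 FPKM in B16. Over 14 reference genes, chosen as evenly expressed, the median difference was 0.06.

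**Figure D5:**
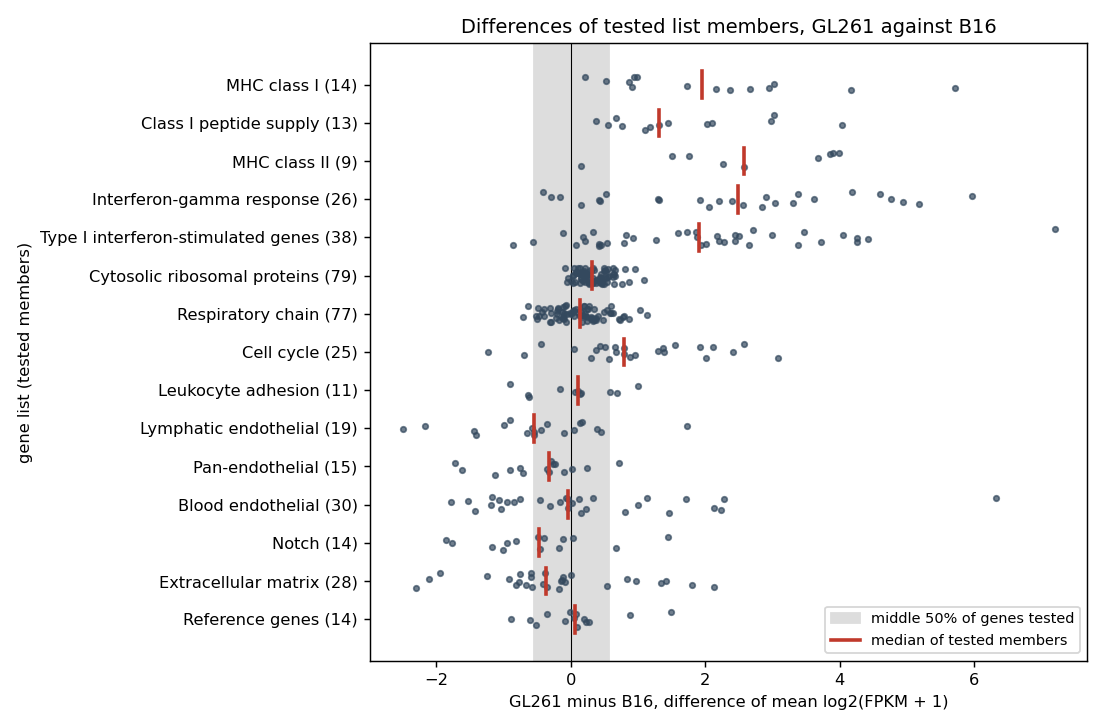
Difference of each tested member (GL261 minus B16, log2) in 15 lists, with the list's median as a red bar and the middle 50% of all genes tested, from -0.55 to 0.57, as a grey band. The class I, peptide supply, class II and both interferon medians lie above the band, and the medians of the remaining lists lie inside it except that of the cell cycle list.

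Markers of other cell types were sparse. Of 12 mural cell genes 2 were tested, and the sums were 17.6 to 68.1 FPKM in GL261 and 101 to 137 FPKM in B16. Kcnj8, a potassium channel gene of pericytes, was at 45.8, 6.56 and 55.1 FPKM and 93.3, 109.6 and 116 FPKM. No gene of the fibroblast (9) or erythroid (8) list was tested, and their sums did not exceed 9.15 FPKM in any tumor library. Neuronal genes (6 in the table) summed to 3.19 to 45.4 FPKM in GL261 and 0 to 46.8 FPKM in B16.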

How the data were processed

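RNA-seq libraries of 10 sorted MLECs (pools of 6 mice, 18 PCR cycles, paired-end 150 bp reads, Smart-seq2) were compared between GL261 (n = 3) and B16 (n = 3) tumors. The authors deposited FPKM values per gene, made with TopHat2 2.0.12 and Cufflinks 2.2.1 on mm9 per the labels' processing notes, and the gene annotation is not given in the sources used here. FPKM carries no read counts, so no count test was run. Relative depth was estimated from the spacing of low FPKM values in genes with a single transcript over 1000 bases, assuming fragments of 300 bases. The spacing covers counting error only.

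Values were used as log2(FPKM + 1) for genes with FPKM of at least 1 in at least 3 of the 6 libraries and tested with limma 3.58.1 (R 4.3.3, moderated with a variance trend, Benjamini-Hochberg adjustment, threshold 0.05), without a replicate block. The fit was tested on simulated data. Whole profiles were compared with an exact permutation test. Named were genes past the threshold, the 15 highest and 15 lowest differences among genes with p under 0.01 whose groups did not overlap, and members of 33 gene lists. The members and lists were chosen with earlier results of these data known. Gene positions are from GENCODE M1 on the same build (NCBIM37, mm9). Promoters are from RefSeq. Alternatives changed the pseudocount, filter, scaling, libraries, variance trend, block and covariates. The depth covariate, the pair of equally deep libraries and the list counts without GL261 replicate 2 or B16 replicate 1 were chosen after seeing the data.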

Additional observations from a re-analysis of the deposited data

Results flagged for a closer look

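B2m was picked out because its difference from control went in opposite directions in the 2 tumors. In a limma fit of all 9 libraries its difference from control was 1.53 (log2) in GL261 and -0.84 in B16, so GL261 stood above and B16 below the same control libraries. The test of the difference between the 2 effects, which is that of GL261 against B16, gave 2.37 with an adjusted p of 0.00027. Both effects share the 3 control libraries. Groups of 3 libraries were not screened for single outlying values.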

How the results depend on the processing

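B2m passed the threshold under 16 of 18 settings, counting the reported one. The number of genes past it was 0 with no filter (812 genes at p under 0.05) and 0 without a variance trend (730), 2 with the number of genes listed above 0 as a covariate, the second being Crip1 (-3.72, adjusted p = 0.020), and 1 to 3 when single libraries were left out. Genes past it then, besides B2m, were H2-Q8 and Tgtp2 without B16 replicate 1, H2-Q7 without B16 replicate 2, Ackr1 without B16 replicate 3 and Ifitm1 without GL261 replicate 2. Genes whose groups did not overlap numbered 1310 in all, 785 with a mean FPKM of at least 10, and 2031 to 2442 when a library was left out, since 5 libraries overlap less often by construction. Replicate numbers did not pair the libraries: correlations of deviations with the same number were -0.03, 0.05 and -0.03. With a replicate block 1 gene passed (B2m, adjusted p = 0.020) and 727 had p under 0.05, against 771. Differences that changed sign were those of Psmb10 with the depth covariate (-0.66), Rpl6 with equal sums (-0.0158) and, with quantile normalization, Rpl6 (-0.0801), Rpl32 (-0.0644), Rps7 (-0.0194) and Rps27 (-0.00817). With single libraries left out, Prox1 ranged from -0.46 (without GL261 replicate 3) to 0.84 and Lyve1 from -0.52 (without GL261 replicate 3) to 0.34 (without B16 replicate 1). Lyve1 was 0.81 with the genes-listed covariate and 1.15 with the depth covariate. Pdpn was 0.52 and 0.90 with those covariates. The cause was not tested. Low genes in the shallower B16 libraries are the least certain.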
